A study of Mus musculus with 18 samples.

Results

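The genes described here are 10 transcripts of the NRF2, heme and ferritin stress response in mouse whole blood: Hmox1, Ftl1, Fth1, Nqo1, Gclm, Gclc, Txnrd1, Srxn1, Sqstm1 and Nfe2l2. They were taken by their gene name on the array, where 15 of 41174 non-control probes carry one of these names, and they are 10 of 20625 named genes on the array and 10 of 13343 genes tested. RNA came from the blood of male C57BL/6N mice, 8 to 12 weeks old, bled by cardiac puncture 6 h after whole-animal exposure to a cesium gamma source. Sham treatment (0 Gy) was given to 7 mice, 2 Gy to 5 mice and 8 Gy to 6 mice, with 1 Agilent 1-colour array per mouse and no pooling stated. Globin RNA had been removed from every sample. RNA was purified with the RiboPure kit, except in the mice 0 Gy replicates 6 and 7 and 2 Gy replicate 5, where the PAXgene kit was used, so all 6 mice at 8 Gy were RiboPure.

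NRF2, the protein of Nfe2l2, is a transcription factor that the adaptor KEAP1 marks for destruction until oxidants or electrophiles release it. It then binds antioxidant response elements with a small MAF partner and raises genes for glutathione and thioredoxin chemistry, quinone reduction, heme breakdown and iron storage. BACH1, a repressor that heme displaces, holds many of the same elements, and Hmox1 and the ferritin genes are among its classic targets. In blood these genes bear on red cell turnover and on the iron and oxidant handling of phagocytes.

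All 15 probes were well above background on all 18 arrays, and 0 were saturated on any array. A level is given below as the log2 signal minus the array's own 75th percentile, so 0 is that percentile, and levels are compared between mice for 1 probe at a time. The arrays differed in brightness: the 75th percentile covered 138 to 425 intensity units in the 0 Gy arrays, 46.4 to 186 in the 2 Gy arrays and 58.4 to 232 in the 8 Gy arrays, and between 15458 and 24450 probes were above background. Of 9 p53 target genes used to check the dose labels, 9 rose at 8 Gy. Their mean level was 3.12 to 3.65 in the 8 Gy mice and 2.50 to 3.47 in the 2 Gy mice. In the array labelled 0 Gy replicate 5 it was 3.07, inside the 2 Gy range and just under the 8 Gy range, against 0.68 to 1.34 in the other 0 Gy mice. In that array the mean level of 9 B cell markers was 1.05, also apart from 3.07 to 4.18 in the other 0 Gy mice. The arrays 0 Gy replicate 4 and 2 Gy replicate 3 stood apart from all others on the first principal component, with median correlations of 0.83 and 0.85 to the other arrays. Results are therefore given with and without these 3 arrays where they matter.

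The probe stretches that follow show the probes on which the calls of Hmox1, Ftl1, Srxn1 and Nfe2l2 rest. They also show the further Srxn1 probes and the Nfe2l2 clone probes that are compared with them below. The second probe of the Nfe2l2 mRNA is not shown. Each stretch is 30 of the 60 bases of a probe, in the sense of its transcript. Capitals in Ftl1 mark the start codon of the reading frame, and capitals in Srxn1 mark the 13 bases that its other 2 probes share. The last pair are the Nfe2l2 probes aimed at cDNA clones. Positions are those of the array design on mm7, which span the whole probe.
Hmox1, first 30 bases, chr8:73642229-73642288, plus strand: atggttgtaagcatccatgttgactgacca
Ftl1, last 30 bases, chr7:41635335-41635394, minus strand: cagccATGacctctcagattcgtcagaatt
Srxn1 called probe, first 30 bases, chr2:151852040-151852099, plus strand: aaagagactagggagagaaagcacattagc
Srxn1 second probe, last 30 bases, chr2:151850306-151850365, plus strand: ctttatgatagcactatATGAACTATGTAC
Srxn1 overlapping probe, first 30 bases, chr2:151850353-151850412, plus strand: ATGAACTATGTACtaggaagtaaaggaaaa
Nfe2l2 called probe, first 30 bases, chr2:75519430-75519489, minus strand: ctcaagttaatttcttaggcaccatttggg
Nfe2l2 clone AK029360, first 30 bases, chr2:75535606-75535665, minus strand: tagtaatcctttttataggcccaaattgca
Nfe2l2 clone AK031731, first 30 bases, chr2:75544410-75544469, minus strand: ggtagagtttggtaatgattaccctgtatt

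At 8 Gy against 0 Gy, 4 of the 10 genes rose and 0 fell: Hmox1, Ftl1, Srxn1 and Nfe2l2, by 1.99-fold to 2.76-fold. The test was limma's moderated test with dose and kit as terms, adjusted over all 13343 genes by Benjamini-Hochberg at a threshold of 0.05. Over all genes tested, 7.46% rose and 4.24% fell by the same rule. The median log2 fold change of the 10 genes was 0.91, and that of all genes was 0.08. Hmox1 passed whichever 1 of the 18 arrays was left out. It alone of the 10 passed without 0 Gy replicate 1, 2 or 4, 2 Gy replicate 5 or 8 Gy replicate 5 or 6. The fitted changes and their errors are drawn in the plot of both doses against 0 Gy, where 9 of 10 genes lie above 0 at 8 Gy and 10 of 10 at 2 Gy.

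**Figure D1:**
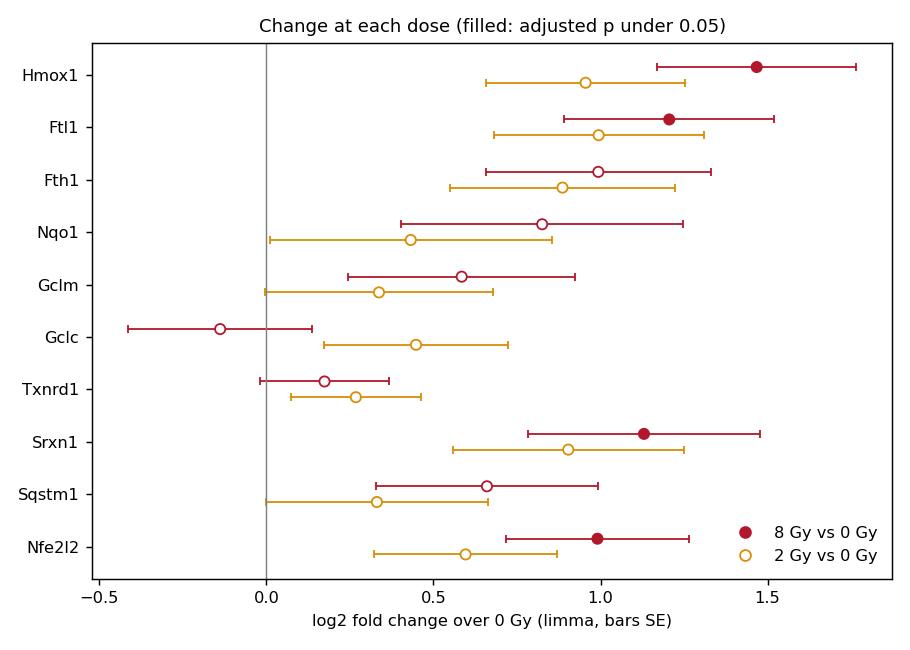
Log2 fold change over 0 Gy for each of the 10 genes (horizontal axis, bars SE), at 8 Gy in red and at 2 Gy in orange; filled points have an adjusted p under 0.05. Hmox1, Ftl1, Srxn1 and Nfe2l2 are filled at 8 Gy, and 0 genes are filled at 2 Gy.

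Hmox1 encodes heme oxygenase 1, the inducible enzyme that opens the heme ring and releases iron, carbon monoxide and biliverdin. Its level in the 7 mice at 0 Gy was 1.32 at the lowest, 1.96 at the median and 3.40 at the highest. In the 5 mice at 2 Gy it was 3.21, 2.51, 2.81, 3.78 and 2.82. In the 6 mice at 8 Gy it was 3.28 at the lowest, 3.62 at the median and 3.95 at the highest. The 8 Gy mice lay closest together of the 3 groups, with means of 3.62 ± 0.23 at 8 Gy (SD, n = 6) and 2.04 ± 0.69 at 0 Gy (SD, n = 7). The highest 0 Gy value belonged to the array labelled 0 Gy replicate 5, so 5 of 6 mice at 8 Gy were above every 0 Gy array. Against the other 0 Gy arrays, 6 of 6 mice at 8 Gy and 5 of 5 at 2 Gy were above the highest. Over all genes, 6.15% had such a separation at 8 Gy and 1.97% at 2 Gy. Hmox1 was 2.76-fold higher at 8 Gy by limma (log2 1.47 ± 0.30 SE, adjusted p = 0.0119). Without the array labelled 0 Gy replicate 5 the log2 change was 1.74 ± 0.24 (limma, adjusted p = 0.000493), and without the 3 arrays that stand apart it was 1.59 ± 0.24 (limma, adjusted p = 0.00151), where 15.4% and 14.9% of all genes rose.

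**Figure D2:**
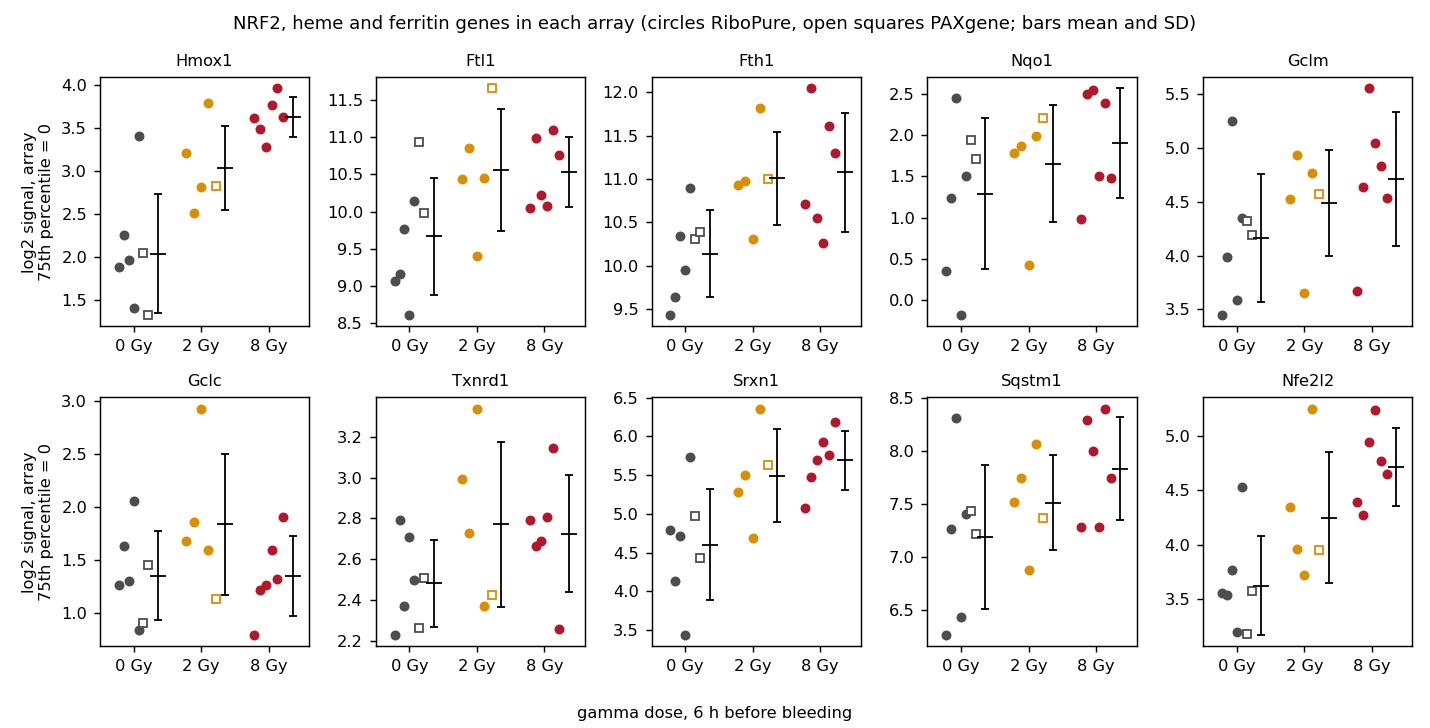
Level of each of the 10 genes (log2 signal, vertical axis, with the array's 75th percentile at 0) in each of 18 mice by dose; circles are RiboPure and open squares PAXgene samples, and bars are the mean and SD of the dose group. The 8 Gy points of Hmox1 lie between 3.28 and 3.95, and 1 of the 0 Gy points, at 3.40, reaches into that range.

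Ftl1 and Fth1 encode the light and heavy chains of ferritin, the shell that stores iron; the heavy chain oxidises the iron and the light chain favours its deposition. Ftl1 had a level of 8.61, 9.77 and 10.93 at the lowest, median and highest 0 Gy mouse. In the 2 Gy mice Ftl1 was at 10.43, 10.85, 9.40, 10.45 and 11.65, and in the 8 Gy mice at 10.04, 10.49 and 11.09 for the lowest, median and highest. The groups overlapped, and 2 of 6 mice at 8 Gy were above every 0 Gy mouse. The 2 PAXgene mice at 0 Gy had Ftl1 at 9.98 and 10.93, against 8.61 to 10.14 in the 5 RiboPure mice at 0 Gy, and the kit was a term of the fit. Ftl1 was 2.31-fold higher at 8 Gy (log2 1.21 ± 0.31 SE, limma adjusted p = 0.0294). Without a kit term the log2 change was 0.86 ± 0.37 (limma, adjusted p = 0.121).

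Fth1 was at 9.43, 10.31 and 10.90 in the lowest, median and highest 0 Gy mouse. In the 2 Gy mice it was at 10.93, 10.98, 10.31, 11.83 and 10.995, and in the 8 Gy mice at 10.26, 11.003 and 12.05 for the lowest, median and highest. Again the groups overlapped, with 3 of 6 mice at 8 Gy and 4 of 5 at 2 Gy above every 0 Gy mouse. The 8 Gy change of Fth1 did not pass the test (log2 0.99 ± 0.34 SE, limma adjusted p = 0.0591), and it passed without the array labelled 0 Gy replicate 5 (log2 1.17 ± 0.34, limma adjusted p = 0.0236). In that fit 15.4% of all genes rose.

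The ferritin probes were among the brightest on every array. Of 41174 probes, Ftl1 held ranks 29 to 45 in the 8 Gy arrays, against 10 to 81 in the 0 Gy arrays, and Fth1 held ranks 11 to 22 in the 8 Gy arrays, against 14 to 32 in the 0 Gy arrays. Before any scaling, the median Ftl1 intensity was 158430 at 8 Gy and 225620 at 0 Gy, and the median Fth1 intensity was 244850 at 8 Gy and 263510 at 0 Gy. The 75th percentile, which is subtracted, was on the whole lower in the irradiated arrays. With the brightness of each array as a covariate, Ftl1 was at 0.82 ± 0.33 (limma, adjusted p = 0.325) and Fth1 at 0.27 ± 0.20 (limma, adjusted p = 0.557), and 0 of all genes were called, with 1791 at an unadjusted p under 0.05. Quantile normalization gave 0.31 ± 0.19 for Ftl1 (limma, adjusted p = 0.268) and 0.10 ± 0.14 for Fth1 (limma, adjusted p = 0.677), so neither passed there. Hmox1 had median unscaled intensities of 1461 at 8 Gy and 783 at 0 Gy. The other called genes had lower unscaled medians at 8 Gy, like the ferritins. Srxn1 was at 5324 at 8 Gy and 5958 at 0 Gy, and Nfe2l2 at 2527 and 2648.

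Under the other scalings the direction at 8 Gy stayed as given for 9 of 10 genes, and Txnrd1 turned under normexp background correction. Of the 9, Sqstm1 (0.0026 ± 0.41) and Gclm (0.025 ± 0.47) were near 0 under normexp. Relative to the median of all genes in that fit they were at -0.096 and -0.074. Hmox1 was 1.32 ± 0.28 with quantile normalization (limma, adjusted p = 0.0161), 1.29 ± 0.28 in the deposited table (limma, adjusted p = 0.0165) and 0.88 ± 0.31 with normexp (limma, adjusted p = 0.0589). Nfe2l2 was 0.73 ± 0.23 with quantile normalization (limma, adjusted p = 0.0540) and 0.38 ± 0.35 with normexp (limma, adjusted p = 0.458). Srxn1 was 0.75 ± 0.30 with quantile normalization (limma, adjusted p = 0.108) and 0.50 ± 0.42 with normexp (limma, adjusted p = 0.407). Scaling by the median of probes above background on all arrays kept all 4 calls. The median of all genes moved to -0.02 with quantile normalization, in place of 0.08. Relative to that median, Hmox1 was 1.39 higher with the 75th percentile and 1.34 higher with quantile normalization, and Ftl1 was 1.12 and 0.33 higher. The split of calls over all genes also moved. It was 996 higher and 566 lower with the 75th percentile (63.8% higher), 500 and 591 with quantile normalization (45.8%), 495 and 595 in the deposited table (45.4%), 905 and 1136 with normexp (44.3%), and 1102 and 1024 with the median scaling (51.8%).

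**Figure D3:**
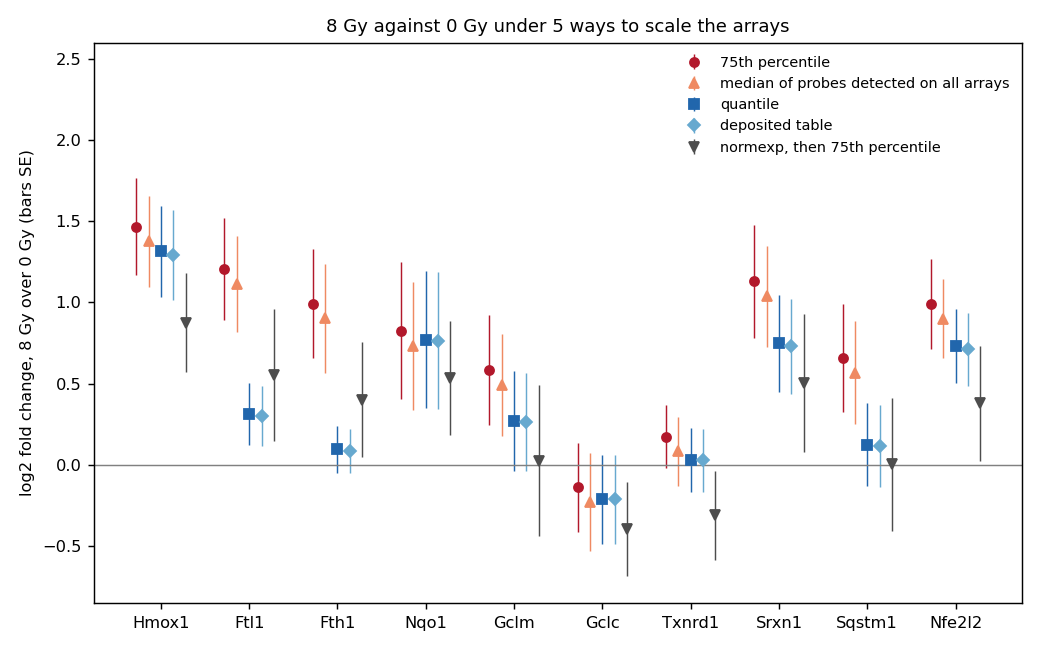
Log2 fold change at 8 Gy over 0 Gy (vertical axis, bars SE) of each of the 10 genes under 5 ways to scale the arrays, one symbol each. Hmox1 lies between 0.88 and 1.47 in all 5, while Ftl1 lies at 1.21 and 1.11 under the 2 percentile scalings and at 0.31 under quantile normalization.

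Srxn1, Txnrd1, Nqo1, Gclm and Gclc are the enzymes of thiol and quinone chemistry in the group. Srxn1 encodes sulfiredoxin, which repairs over-oxidised peroxiredoxins, and its level at 0 Gy was 3.43, 4.72 and 5.74 for the lowest, median and highest mouse. In the 2 Gy mice Srxn1 was at 5.28, 5.51, 4.69, 6.36 and 5.63, and in the 8 Gy mice at 5.07, 5.73 and 6.19 for the lowest, median and highest. The highest 0 Gy value was again the array labelled 0 Gy replicate 5, and 6 of 6 mice at 8 Gy lay above the other 0 Gy mice. Srxn1 was 2.19-fold higher at 8 Gy (log2 1.13 ± 0.35 SE, limma adjusted p = 0.0453), and 1.39 ± 0.32 on the log2 scale without that array (limma, adjusted p = 0.00859). Without that array, 6.15% of all genes had the same separation at 8 Gy and 15.4% rose.

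The other enzymes did not pass at 8 Gy. Nqo1, which reduces quinones by 2 electrons, spanned 0.98 to 2.55 at 8 Gy, against -0.19 to 2.46 at 0 Gy (log2 change 0.83 ± 0.42, limma adjusted p = 0.181). Gclm, the modifier subunit of the enzyme that limits glutathione synthesis, spanned 3.67 to 5.55 at 8 Gy, against 3.45 to 5.25 at 0 Gy (0.58 ± 0.34, limma adjusted p = 0.238). Its catalytic partner Gclc spanned 0.79 to 1.90 at 8 Gy, against 0.84 to 2.06 at 0 Gy, the one gene with a change below 0 (-0.14 ± 0.27, limma adjusted p = 0.760). Txnrd1, the cytosolic thioredoxin reductase, spanned 2.26 to 3.14 at 8 Gy, against 2.23 to 2.79 at 0 Gy (0.17 ± 0.19, limma adjusted p = 0.556). All 4 ranges overlapped broadly with those of the 0 Gy mice. In the 5 mice at 2 Gy, Nqo1 lay between 0.42 and 2.21, Gclm between 3.66 and 4.93, Gclc between 1.12 and 2.93 and Txnrd1 between 2.37 and 3.34, also across the 0 Gy ranges.

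Nfe2l2, the transcript of NRF2 itself, had a level at 0 Gy of 3.18, 3.56 and 4.53 for the lowest, median and highest mouse. In the 2 Gy mice it was at 4.34, 3.96, 3.72, 5.25 and 3.95, and in the 8 Gy mice at 4.27, 4.71 and 5.24 for the lowest, median and highest. The array labelled 0 Gy replicate 5 gave the 4.53, and 6 of 6 mice at 8 Gy lay above the other 0 Gy mice. Nfe2l2 was 1.99-fold higher at 8 Gy (log2 0.99 ± 0.27 SE, limma adjusted p = 0.0358), and 1.17 ± 0.26 without that array (limma, adjusted p = 0.00806). As for Srxn1, 6.15% of all genes were so separated without that array, and 15.4% rose. NRF2 is regulated largely through the stability of its protein, which arrays do not measure. Sqstm1 encodes p62, the autophagy receptor that binds KEAP1. It spanned 7.28 to 8.40 at 8 Gy, against 6.26 to 8.31 at 0 Gy, with 6.87 to 8.07 at 2 Gy, and its change at 8 Gy did not pass (0.66 ± 0.33, limma adjusted p = 0.174).

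Srxn1 and Nfe2l2 are the members with more than 1 probe. The 3 Srxn1 probes gave log2 changes at 8 Gy of 1.13 (limma adjusted p = 0.0483), 1.06 (0.0547) and 1.21 (0.0487), adjusted over 22038 probes. The last 2 of these share 13 bases and are not independent. Both probes of the Nfe2l2 mRNA gave 0.99 and 1.00 (limma adjusted p = 0.0377 and 0.0365). The 2 clone probes lie 15971 and 24775 bases from the nearest mRNA probe on mm7 and differed from each other. With the AK029360 probe, the 0 Gy mice were at -2.97, -2.53 and -2.16 for the lowest, median and highest. At 2 Gy they were at -1.55, -1.15, -2.13, -1.51 and -1.54, and at 8 Gy at -2.0015, -1.47 and -0.84 for the lowest, median and highest. After scaling, every 8 Gy mouse and every 2 Gy mouse lay above every 0 Gy mouse. The array labelled 0 Gy replicate 5 was among those 0 Gy mice. Such a separation was shown by 0.867% of probes at 8 Gy and 0.141% at 2 Gy. All levels of the AK029360 probe were negative, so its signal lay below the percentile that is subtracted. That percentile was on the whole lower in the irradiated arrays. Before scaling, this probe did not separate the groups. In 0 Gy replicate 1 its level was -2.57 and the log2 percentile 8.73. In 2 Gy replicate 4 they were -1.51 and 5.54, and in 8 Gy replicate 2 they were -1.56 and 5.87. Both irradiated arrays thus had a lower unscaled signal than that 0 Gy array. Whether this probe separates the groups under another scaling was not tested. The AK029360 probe changed by 1.07 ± 0.22 at 8 Gy (limma, adjusted p = 0.0121) and by 0.95 ± 0.22 at 2 Gy (limma, adjusted p = 0.0669). The AK031731 probe spanned -2.14 to 0.55 at 8 Gy, against -2.56 to -0.95 at 0 Gy, and did not pass (0.62 ± 0.41, limma adjusted p = 0.304). What either clone represents in blood is not annotated in the files.

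**Figure D4:**
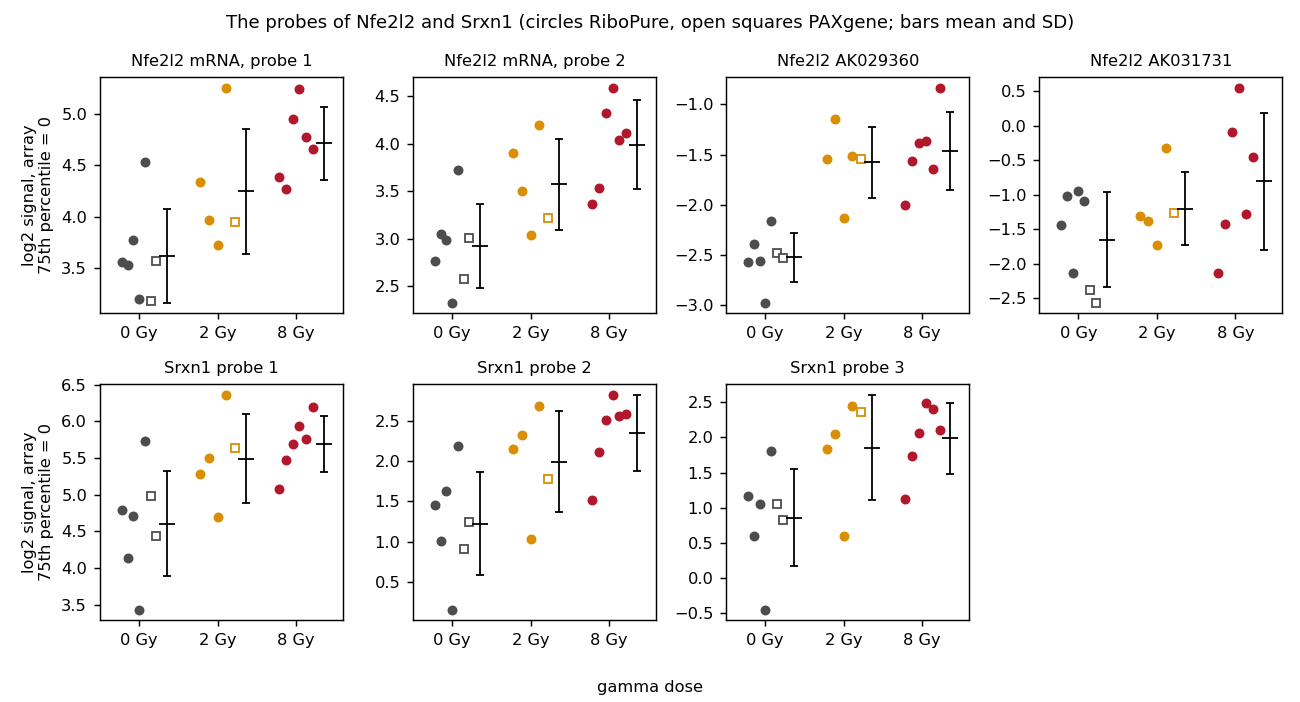
Level (log2 signal, vertical axis, with the array's 75th percentile at 0) of the 4 Nfe2l2 probes in the upper row and the 3 Srxn1 probes in the lower row, by dose, with the mean and SD of each dose group; circles are RiboPure and open squares PAXgene samples. For the AK029360 probe the 0 Gy points end at -2.16, and the 2 Gy and 8 Gy points start at -2.13 and -2.0015.

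The promoters of Srxn1 and Nfe2l2 are shown because these members rose and hold a letter pattern of antioxidant response elements. Capitals mark TGANTCAGC in Srxn1, whose first base is 45 bases before the start of transcription, and TGACNNNGC in Nfe2l2, 240 bases before it, both on the strand of the gene. The sequences are the 250 bases before the RefSeq start on GRCm38.p6.
Srxn1, chr2:152105274-152105523, plus strand: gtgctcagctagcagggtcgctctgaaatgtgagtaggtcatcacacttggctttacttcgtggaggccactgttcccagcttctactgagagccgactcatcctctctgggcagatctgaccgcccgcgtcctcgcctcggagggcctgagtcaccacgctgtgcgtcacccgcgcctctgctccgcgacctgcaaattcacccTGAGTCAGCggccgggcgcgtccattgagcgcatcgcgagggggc
Nfe2l2, chr2:75704664-75704913, minus strand: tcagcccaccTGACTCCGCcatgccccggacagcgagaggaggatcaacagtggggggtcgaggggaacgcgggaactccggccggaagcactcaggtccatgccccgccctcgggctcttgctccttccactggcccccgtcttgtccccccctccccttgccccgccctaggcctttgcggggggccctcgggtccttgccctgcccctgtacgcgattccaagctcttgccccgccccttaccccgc
Promoter entries from 250 bases before to 50 after a start were matched for 8 of the 10 genes, 11 promoters in all; Hmox1 and Gclc had no entry. On either strand, TGACNNNGC was found in 4 of these 8 genes, Nfe2l2, Srxn1, Gclm and Txnrd1, and in 12.4% of 32851 promoters. The count is of genes, which can have several promoters, and the share is of promoters, so they are not like figures. In Srxn1 this pattern lies 29 bases after the start on the other strand, outside the bases shown. TGANTCAGC, which coincides with the first pattern where its N is a C, was found in Srxn1 alone of the 8 and in 1.19% of promoters. It was chosen after these sequences were seen, so its presence in Srxn1 is a description and cannot be weighed against that share. Gclm and Txnrd1, which did not pass at 8 Gy, hold the first pattern 134 and 92 bases before a start, on the other strand. Ftl1, which rose, holds neither in this window.

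At 2 Gy against 0 Gy, 0 of the 10 genes passed the test, where 7 of all 13343 genes (0.0525%) did, 4 of them higher (0.03%) and 3 lower (0.0225%), and 2716 had an unadjusted p under 0.05. The largest changes were those of Ftl1 (log2 0.99 ± 0.31, limma adjusted p = 0.134), Hmox1 (0.96 ± 0.30, 0.129), Srxn1 (0.90 ± 0.35, 0.180) and Fth1 (0.89 ± 0.34, 0.178). The median over the 10 genes was 0.52, against 0.06 over all genes. This comparison turned on single arrays. Without the array labelled 0 Gy replicate 5, Hmox1 (1.19 ± 0.24, limma adjusted p = 0.0135), Ftl1 (1.15 ± 0.31, 0.0383) and Srxn1 (1.12 ± 0.31, 0.0438) passed, while 4.02% of all genes were then higher at 2 Gy. Without the 3 arrays that stand apart, 5 members passed, Fth1 and Nfe2l2 being the added ones, while 11.4% of all genes were then higher at 2 Gy. The 2 Gy and 8 Gy changes share the same 0 Gy mice.

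At 8 Gy against 2 Gy, limma called 0 of 13343 genes (0%), with 418 at an unadjusted p under 0.05, and so 0 members. Gclc had the largest difference, with levels of 0.79 to 1.90 at 8 Gy and 1.12 to 2.93 at 2 Gy (log2 -0.59 ± 0.29, limma adjusted p = 0.928). The 2.93 was 2 Gy replicate 3, and without that array Gclc was at -0.31 ± 0.26 (limma, adjusted p = 1.00). Hmox1 was 0.51 ± 0.31 higher at 8 Gy (limma, adjusted p = 0.928), and the median over the 10 genes was 0.24.

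Slide and scan day were read from the scanner headers, which name 8 slides and 7 days. On the slide with 2 arrays at 8 Gy and 1 at 0 Gy, 10 of 10 genes were higher at 8 Gy, by 0.16 to 1.85, with Hmox1 at 1.64, Nfe2l2 at 1.54 and Srxn1 at 1.02. On the slide with 2 arrays at 2 Gy and 1 at 0 Gy, 10 of 10 were higher at 2 Gy, by 0.07 to 1.48. On the slide that paired the PAXgene mice, 1 at 2 Gy and 1 at 0 Gy, 9 of 10 were higher at 2 Gy. On the slide with 2 Gy replicate 3 and the array labelled 0 Gy replicate 5, 2 of 10 were higher at 2 Gy, Gclc by 2.10 and Txnrd1 by 0.84, and Hmox1 was lower by 0.59 on the log2 scale. On the slide with 3 arrays at 8 Gy and 1 at 2 Gy, 2 of 10 were higher at 8 Gy. With slide as a block limma called 0 of all genes at 8 Gy, with 1139 at an unadjusted p under 0.05, and no member passed: Hmox1 was 1.01 ± 0.42 (limma, adjusted p = 0.577), Ftl1 0.97 ± 0.51 (0.599), Nfe2l2 0.63 ± 0.48 (0.628) and Srxn1 0.34 ± 0.55 (0.798). With slide as a random block Hmox1 kept its call at 1.38 ± 0.31 (limma, adjusted p = 0.0245).

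Markers of some blood cell types moved with dose in the same arrays. Over all genes tested, 7.46% rose and 4.24% fell at 8 Gy. Of 11 measured mature neutrophil markers, 9 rose at 8 Gy, with a median log2 change of 2.31. Their mean level was 4.10 to 6.01 at 8 Gy, 3.14 to 5.68 at 2 Gy and 2.31 to 4.60 at 0 Gy, the highest 0 Gy value being again the array labelled 0 Gy replicate 5. Of 9 B cell markers 9 fell at 8 Gy, with a median of -3.58. Of 8 platelet markers 2 rose (median 1.02). Of 10 erythroid and reticulocyte markers 1 rose (median 0.86), which is near the share of all genes that rose. Of 11 monocyte and macrophage markers 0 passed (median 0.27), as did 0 of 8 T cell markers (median -0.25). No measured marker in these lists was below background throughout a dose group, and markers that were not measured were not checked. In bulk blood, more cells of a type and more RNA per cell cannot be told apart.

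In the array labelled 0 Gy replicate 5, the neutrophil markers, Hmox1, Srxn1 and Nfe2l2 each had their highest 0 Gy level. In 2 Gy replicate 4 each had its highest 2 Gy level. Fth1, the p53 targets and the platelet markers did the same. The platelet markers had mean levels of 8.43 in 2 Gy replicate 4 and 8.00 in the array labelled 0 Gy replicate 5. The monocyte markers were highest at 0 Gy in that array too, at 3.54. At 8 Gy the highest levels fell in different mice. They were in replicate 4 for the neutrophil markers (6.01) and Nfe2l2 (5.24), in replicate 5 for Hmox1 (3.95) and in replicate 6 for Srxn1 (6.19). The part of any of these cell types in the results was not tested apart from the following fit. With the neutrophil marker level of each array as a covariate, added after the data had been seen, no member passed at 8 Gy: Hmox1 was 0.44 ± 0.33 (limma, adjusted p = 1.00), Srxn1 -0.17 ± 0.35 and Nfe2l2 -0.12 ± 0.24 (both limma, adjusted p = 1.00). The same fit called 0 of all 13343 genes in limma, the p53 targets included, with 286 at an unadjusted p under 0.05. The neutrophil markers themselves moved with dose, so marker level and dose cannot be told apart in this fit.

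**Figure D5:**
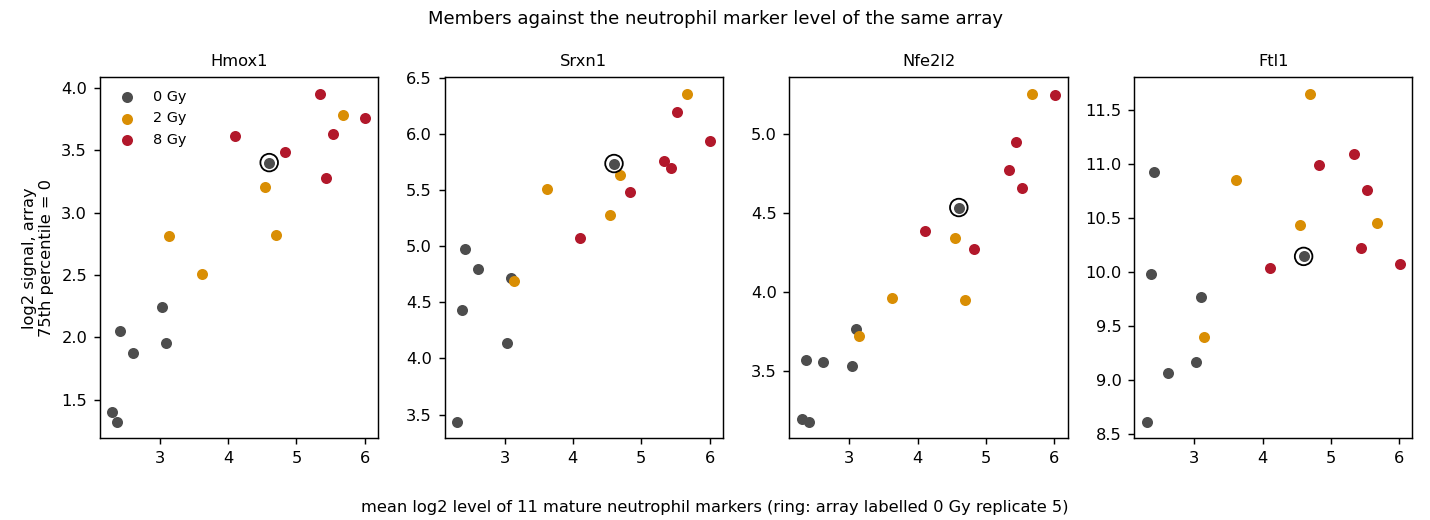
Level of Hmox1, Srxn1, Nfe2l2 and Ftl1 (vertical axis, log2 signal with the array's 75th percentile at 0) against the mean level of 11 mature neutrophil markers (horizontal axis, same scale) in each of 18 mice, coloured by dose; a ring marks the array labelled 0 Gy replicate 5. That array has a neutrophil marker level of 4.60 and lies among irradiated mice in the first 3 panels.

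Among 31 other measured NRF2 regulators and targets, 3 rose and 0 fell at 8 Gy, with a median of 0.20. That count is near the 7.46% of all genes that rose. The 3 were Gsr, glutathione reductase (1.55 ± 0.45, limma adjusted p = 0.0396), and the pentose phosphate enzymes Pgd (1.08 ± 0.27, 0.0248) and Taldo1 (1.00 ± 0.27, 0.0346). Osgin1 missed the threshold (1.62 ± 0.52, limma adjusted p = 0.0507). Of 15 other antioxidant enzymes 7 rose and 0 fell (median 0.83), including the peroxiredoxins Prdx2 (1.21 ± 0.29, limma adjusted p = 0.0223) and Prdx6 (0.82 ± 0.22, 0.0343). The others named by the rule were Gpx1, glutathione peroxidase 1 (1.05 ± 0.29, 0.0346), and Glrx, glutaredoxin (1.30 ± 0.36, 0.0354).

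Of 10 heme synthesis genes 0 passed (median 0.32). Fech, which inserts iron into the ring, was at 0.85 ± 0.30 (limma, adjusted p = 0.0675), Alas2, the first enzyme in erythroid cells, at 1.00 ± 0.38 (0.0843), Alas1 at 0.82 ± 0.46 (0.225) and Ppox at 0.38 ± 0.28 (0.348). Of 12 heme breakdown and transport genes 1 rose (median 0.10): Slc48a1, which carries heme out of lysosomes (0.98 ± 0.27, limma adjusted p = 0.0350). A count of 1 in 12 is near the 7.46% of all genes that rose. Hp, haptoglobin, was at 1.60 ± 0.57 (0.0710), Blvrb, a biliverdin reductase, at 0.83 ± 0.31 (0.0796) and Hebp1 at 0.72 ± 0.38 (0.195).

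Over all genes tested, 7.46% rose at 8 Gy. Of 13 measured genes of iron uptake, storage and export 3 rose and 0 fell (median 0.63). They were Slc11a1, the phagosomal metal transporter (1.37 ± 0.30, limma adjusted p = 0.0158), Slc40a1, the iron exporter ferroportin (1.47 ± 0.37, 0.0259), and Ncoa4, the receptor that takes ferritin to lysosomes (0.95 ± 0.26, 0.0361). Slc25a37, mitoferrin 1, was at 0.97 ± 0.32 (limma, adjusted p = 0.0549). Of 10 selective autophagy genes that work with Sqstm1, 4 rose and 0 fell (median 0.71): the ubiquitin-like proteins Gabarapl1 (0.80 ± 0.19, limma adjusted p = 0.0231), Gabarap (0.86 ± 0.23, 0.0304) and Map1lc3b (1.07 ± 0.32, 0.0423), and the kinase Ulk1 (0.73 ± 0.22, 0.0453). At 2 Gy 0 genes of these 6 lists passed. With quantile normalization 500 of all 13343 genes were higher at 8 Gy. The list counts were then 1 for the NRF2 list, 1 for the antioxidant enzymes and 2 for the iron genes. The heme lists and the autophagy genes had 0. Without the array labelled 0 Gy replicate 5 the counts were 8 for the NRF2 list, 8 for the antioxidant enzymes and 5 for the iron genes. They were 1 for heme synthesis, 3 for heme breakdown and 5 for the autophagy genes, where 15.4% of all genes were higher.

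The genes whose pattern over the 18 arrays was most like that of Hmox1 were Fcgr3, Rab20, Pirb, Junb and Slc11a1. Likeness was the root mean square difference of levels centred per gene, which was 0.287 to 0.313 for these 5, against a median of 0.967 over 13332 genes. For Ftl1 they were Tmem256, Bola3, Map1lc3b, Hbq1a and Slc25a39, with 0.173 to 0.208 against a median of 0.897. The 2 sets of 5 had no gene in common. These are descriptions over arrays that share scaling and dose, with no test.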

How the data were processed

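Per the file headers, the authors' scanner files hold a processed Cy3 intensity for each spot, made with Agilent Feature Extraction 9.5.3.1 by background subtraction and detrending. The authors' deposited value table gives linear intensities with nearly equal column medians (20.662 to 20.664), as quantile normalization leaves them. On the log2 scale each column correlated with its own array at 0.988 to 0.9997, so scale and direction are known, while the steps and any centring are not stated. The submitters' processing notes also name limma, with no step given. Here, processed intensities were averaged over the spots of a probe, taken to log2 and reduced by the array's 75th percentile over non-control probes. A total of 45 probe values marked as outliers were left out. Genes were tested with limma 3.58.1 in R 4.3.3 (lmFit, eBayes) on dose and kit over all 18 arrays. A probe entered if the scanner software placed it well above background in 5 or more of the 18 arrays, and the probe with the highest mean stood for its gene. Files name 18 distinct mice, so p-values rest on the spread between arrays of different mice, and the number of arrays limits precision. Slide and scan day were not terms of the main fit and were spread unevenly over the doses. Their differences can enter both that spread and the changes with dose. Gene names were updated through RefSeq: 22951 probes by accession, 9768 by symbol, 1258 kept the file's name and 7197 had none. Promoters are RefSeq's.

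Members and gene lists were chosen with earlier results of these data known. Named are all 10 members and their probes, up to 4 genes per list with the smallest p at 8 Gy and every passing gene where 5 or fewer passed, and the 5 genes most like Hmox1 and Ftl1. The second promoter pattern was chosen after the sequences were seen. No mm7 annotation was used.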

Additional observations from a re-analysis of the deposited data

Results flagged for a closer look

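Each dose group of each member was searched for a sample far from the rest, and 1 of 30 groups held one, where chance alone marks about 1 in 20. Nqo1 in 2 Gy replicate 3 had a level of 0.4224, while the other 2 Gy mice lay between 1.789 and 2.213. Its gap to the nearest mouse was 0.763 of the range of the group, above the critical value of 0.71 for 5 samples. The same array stood apart from the other arrays over all genes and held the lowest 2 Gy level of Ftl1, Fth1, Srxn1, Gclm, Sqstm1 and Nfe2l2 as well. Without it, 0 members and 203 of all genes passed at 2 Gy against 0 Gy.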

How the results depend on the processing

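A total of 34 alternatives were run for each result; 2 of them, leaving out 0 Gy replicates 4 and 5 and 2 Gy replicate 3 together and the neutrophil marker level as a covariate, were chosen after seeing the data. At 8 Gy against 0 Gy, Hmox1 passed in 29 of the 34, Ftl1 in 15, Nfe2l2 in 14, Srxn1 in 9 and Fth1 in 5; over all results 1416 values kept direction and side of the threshold, 338 no longer passed, 38 newly passed and 44 changed sign. The members past the threshold at 8 Gy were 4. They were 1 with quantile normalization, the deposited table, no filter on dim probes, RiboPure arrays only, slide as a random block and the replicate block, and 0 with normexp background correction, slide or scan day as a fixed block, array brightness as a covariate and the neutrophil marker level. Leaving out 1 array gave 1 to 5 members, with 1 without 0 Gy replicate 1, 2 or 4, 2 Gy replicate 5 or 8 Gy replicate 5 or 6, 2 without 0 Gy replicate 3 or 8 Gy replicate 2, 3 or 4, and 5 without 0 Gy replicate 5, 2 Gy replicate 4 or 8 Gy replicate 1. Genes past it at 8 Gy were 1562, and they were 558 with no filter, 277 with RiboPure arrays only, 580 with slide as a random block, 239 with the replicate block and 3479 without the 3 arrays, and 0 with slide or scan day as a fixed block, array brightness or the neutrophil level. Without 1 array they ranged from 268 (0 Gy replicate 1) to 3024 (0 Gy replicate 5), with 2868 without 8 Gy replicate 1.

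At 2 Gy, 7 genes and 0 members passed; genes were 53 with normexp, 33 with probes above background on all arrays, 68 with the replicate block, 2408 without the 3 arrays, and 0 with no filter, RiboPure arrays only, slide or scan day as a fixed block, array brightness or the neutrophil level. Without 1 array they ranged from 0 to 907 (without 0 Gy replicate 5), with 203 without 2 Gy replicate 3 and 158 without 8 Gy replicate 1. The fits with 0 calls at 8 Gy had 1139 (slide), 2475 (scan day), 1791 (brightness) and 286 (neutrophil level) genes at an unadjusted p under 0.05 in limma, and the slide and scan day fits carried no kit term. Members were 5 without the 3 arrays, and 0 to 3 without 1 array, the 3 without 0 Gy replicate 5. At 8 Gy against 2 Gy no count moved. Same-numbered mice did not steadily deviate together: of 16 pairs, with correlations from -0.35 to 0.48, 8 were over 0.1. Of 18 arrays, 2 correlated best with their own number. The numbers were therefore taken as names of samples, though these values do not settle whether they pair mice.

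The log2 changes that turned sign were as follows. With the neutrophil marker level as a covariate these changed sign: Nqo1 -0.13, Gclm -0.26, Gclc 0.39, Srxn1 -0.17, Nfe2l2 -0.12, Glrx -0.11, Gsr -0.35, Slc40a1 -0.016 at 8 Gy against 0 Gy, and Nqo1 -0.17, Gclm -0.19, Sqstm1 -0.038, Nfe2l2 -0.10 at 2 Gy against 0 Gy, and Ftl1 -0.045, Fth1 -0.13, Gclm -0.063, Txnrd1 0.026, Srxn1 -0.25, Nfe2l2 -0.014 at 8 Gy against 2 Gy. With slide as a fixed block these changed sign: Gclc 0.21 at 8 Gy against 0 Gy, and Fth1 -0.064, Txnrd1 0.38, Srxn1 -0.32 at 8 Gy against 2 Gy. With scan day as a fixed block these changed sign: Gclc 0.27 at 8 Gy against 0 Gy, and Txnrd1 0.0050, Srxn1 -0.011 at 8 Gy against 2 Gy. With normexp background correction these changed sign: Txnrd1 -0.31 at 8 Gy against 0 Gy, and Ftl1 -0.14, Fth1 -0.21, Gclm -0.066, Srxn1 -0.13, Sqstm1 -0.037 at 8 Gy against 2 Gy. With quantile normalization these changed sign: Sqstm1 -0.077 at 2 Gy against 0 Gy. In the deposited table these changed sign: Sqstm1 -0.077 at 2 Gy against 0 Gy. With array brightness as a covariate these changed sign: Sqstm1 -0.050 at 2 Gy against 0 Gy. Without a kit term these changed sign: Ftl1 -0.029 at 8 Gy against 2 Gy. Without 2 Gy replicate 3 these changed sign: Ftl1 -0.044, Fth1 -0.076, Txnrd1 0.051 at 8 Gy against 2 Gy. Without the 3 arrays these changed sign: Ftl1 -0.042, Fth1 -0.044, Txnrd1 0.058 at 8 Gy against 2 Gy. With the replicate block these changed sign: Fth1 -0.12, Srxn1 -0.018 at 8 Gy against 2 Gy. Without 8 Gy replicate 2 these changed sign: Fth1 -0.086 at 8 Gy against 2 Gy.

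Leaving out 1 array, the 8 Gy against 2 Gy change ranged from -0.044 to 0.36 for Ftl1, -0.086 to 0.35 for Fth1, -0.22 to 0.051 for Txnrd1 and -0.70 to -0.31 for Gclc. The causes of these moves were not tested. Array brightness differed between dose groups, and leaving out arrays also lowers the number of mice. All probes of members were well above background on all arrays, and normexp background correction still left 0 members past the threshold at 8 Gy.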
